A study of Mus musculus with 36 samples.

Results

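The step from postnatal day 0 (P0) to P4 was followed in whole ventricular myocardium of CD-1 mice, with 2 RNA sequencing libraries at each age, 4 of the 36 libraries of the series. The genes described are those of 36128 gene models with a level of at least 1 FPKM in 2 or more of these 4 libraries, which left 13187. FPKM is a level scaled to transcript length and library size, so depth in reads is unknown and no counting interval can be given. The series compared heart muscle of newborn mice with hearts after injury. Beside the P0 and P4 ventricle, the groups used here are ventricle at P7 and in adults of unstated age (n = 2 each), and cardiomyocytes isolated on Miltenyi columns at P0, at P4 and 7 days after a sham operation (n = 3 each), the last set beside ventricle 7 days after a sham operation (n = 2). The labels name no altered gene in any of these groups. For the spread alone, the ventricle fits also drew on ventricle 1 day after a sham operation or resection and 7 days after resection (n = 2 each). Cardiomyocytes isolated 7 days after resection (n = 3) likewise entered the isolated fit. The test between preparations drew on all of these and on cultured adult cardiomyocyte explants. The labels do not say whether replicates came from separate animals, so p-values measure only the spread between these samples.

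In the first days after birth the mouse breathes air, its cardiomyocytes move towards oxidative metabolism, and contractile proteins of fetal type give way to adult ones. In the same days the ventricle still holds dividing cardiomyocytes, a capacity it loses soon after. P4 against P0 is the first interval of that course sampled here, and the question it addresses is which genes move early.

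The labels name cardiomyocytes as the cell type, while the source is ventricular tissue. The 7 cardiomyocyte markers found summed to between 21145 and 23777 FPKM in the 4 libraries, and the ages overlapped. Markers of other cells were present in every library, such as Dcn (decorin, a matrix proteoglycan of fibroblasts) at 111 to 198 FPKM and the endothelial cadherin gene Cdh5 at 59.9 to 92.0 FPKM, so a level is one of the tissue. In such tissue, fewer cells of a type and less RNA per cell cannot be told apart. Between 12884 and 13134 genes per library reached 1 FPKM, and replicates correlated at r = 0.982 (P0) and 0.989 (P4) across genes, which are not independent replicates, on the log2 scale. The first P0 library stood apart: the mitochondrial genome gave 14.6% of its summed FPKM against 21.99 to 22.11% in the other 3, and its 10 atrial markers summed to 1836 FPKM against 758 in the second P0 library. Results that turn on it are given without it.

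Differences are on the scale of log2(FPKM + 1), which understates the change of low genes, and were tested with limma over the 16 ventricle libraries. Genes whose p, adjusted by the method of Benjamini and Hochberg, was under 0.05 are named called. At P4, 218 genes were called (1.65% of those tested), 101 higher (0.766%) and 117 lower (0.887%), and the median of all genes tested was -0.04. Of the higher genes 40 differed by at least 2-fold and 4 by at least 4-fold, and of the lower genes 41 and 4. The size was alike in both directions, with a median of 0.90 among the higher and 0.89 among the lower. In none of the 218 called genes did the libraries of P0 and P4 overlap, although both P4 libraries also lay above both P0 libraries in 18.4% of all genes tested and below them in 27.8%. A fit that leaves out 1 library has only 1 library at that age, so a call can be lost while the difference stays alike. When each of the 4 libraries was left out in turn, 32 of the 218 were called every time and 67 never, and all 218 kept their direction. Other processing was tried in 13 fits, these included: 15 genes were called in all of them, and 6 more in every fit but that with a filter at 5 FPKM, which left them out. The number of calls fell to 90 without the first P0 library, 49 without the first P4 library and 64 without the second P4 library, and was 273 without the second P0 library.

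**Figure D1:**
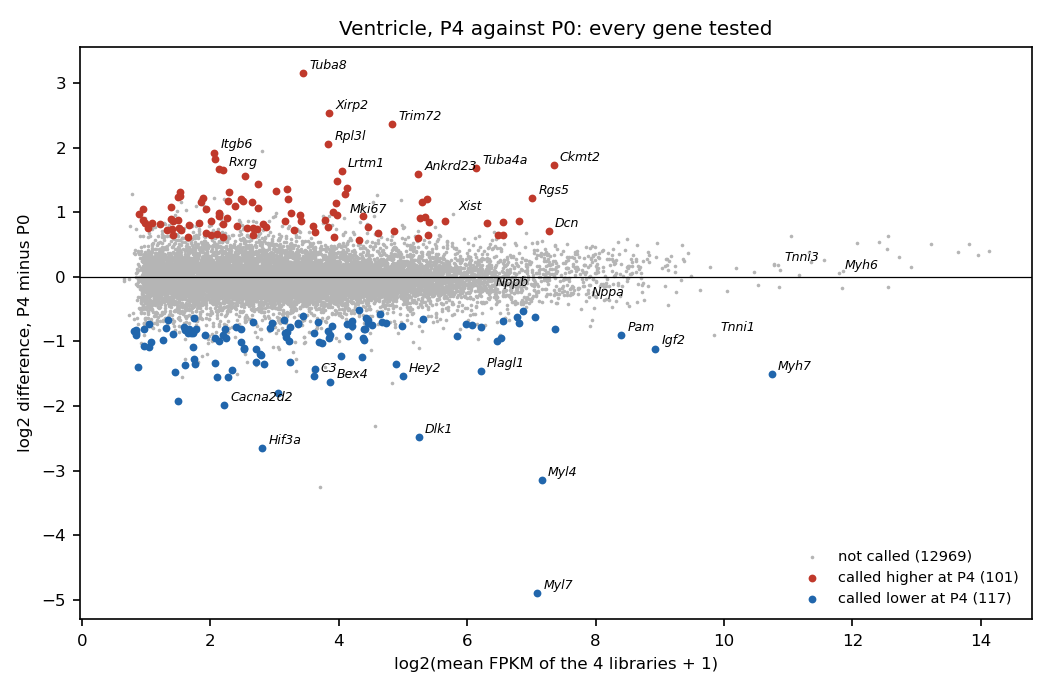
Each point is 1 of the 13187 genes tested, with the mean level of the 4 libraries as log2(FPKM + 1) on the x axis and the log2 difference P4 minus P0 on the y axis. The 101 genes called higher are red and the 117 called lower are blue; Tuba8 at 3.16 and Myl7 at -4.90 are the extremes among them, and Myh7 is the called gene of highest level.

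The largest called increases included a tubulin, a protein of the intercalated disc, a membrane repair protein and a creatine kinase. Tuba8, an alpha-tubulin gene (chr6:121160752-121176872, mm9), read 1.36 and 0.912 FPKM at P0 and 24.1 and 13.4 FPKM at P4. Its mean rose 16.5-fold, and its log2 difference was 3.16 (SE 0.33, adjusted p = 0.00051). A second alpha-tubulin gene, Tuba4a, rose from 33.2 and 31.3 FPKM to 122 and 92.1 FPKM, a log2 difference of 1.69. Tubulin genes are close in sequence, and how shared reads were assigned is not given in the sources used here.

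Xirp2 (chr2:67072587-67364671, mm9) encodes xin actin-binding repeat protein 2, which sits at the intercalated disc and the Z-disc of heart muscle. It read 1.995 and 4.88 FPKM at P0 and 21.96 and 24.7 FPKM at P4, with a log2 difference of 2.53 (SE 0.33, adjusted p = 0.00183). The gene is known as a target of the factor MEF2, and the 250 bases before its start are shown because they hold a MEF2 site, in capitals, 74 to 65 bases before the start (chr2:67445752-67446001, plus strand, RefSeq promoter table of GRCm38.p6).

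Xirp2: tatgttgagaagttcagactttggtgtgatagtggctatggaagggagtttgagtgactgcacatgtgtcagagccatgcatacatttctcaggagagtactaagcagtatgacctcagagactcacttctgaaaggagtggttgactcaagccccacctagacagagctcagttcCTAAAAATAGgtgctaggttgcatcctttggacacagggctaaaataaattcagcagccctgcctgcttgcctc

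Of 21 tested sarcomere genes Xirp2 alone was called, and the median of the list was 0.19 against -0.04 for all genes. Trim54, a ubiquitin ligase of the sarcomere, came next with 0.94 (adjusted p = 0.0738). The cardiac troponin I gene Tnni3 was not called: it read 1832 and 1604 FPKM at P0 and 2046 and 1868 FPKM at P4, a difference of 0.19 (95% interval from limma, -0.24 to 0.62).

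Trim72 (mitsugumin 53), a protein of membrane repair in muscle, read 10.1 and 6.64 FPKM at P0 and 41.8 and 51.8 FPKM at P4 (log2 difference 2.37, adjusted p = 0.000406). Ckmt2, the mitochondrial creatine kinase of striated muscle, was the most abundant of the strongly raised genes: 82.5 and 66.1 FPKM became 274 and 224 FPKM, a 3.35-fold rise in the mean (log2 difference 1.73, SE 0.17). Rpl3l, a ribosomal protein gene restricted to striated muscle, rose from 4.63 and 4.21 FPKM to 27.2 and 17.0 FPKM (2.06). Both P4 libraries were far above both P0 libraries in each of these genes. Rpl3l was the exception in its list of 24 tested genes of the cytosolic ribosome and its muscle paralog. It was the only one called and the only one with a positive difference. The other 23 were negative, where 56.6% of all tested genes were negative. The list's median was -0.25, and it was -0.08 with 8 positive members without the first P0 library. In isolated cardiomyocytes the list went the other way, with 23 positive and 1 negative P4 minus P0 estimates and a median of 0.20. There 70.2% of all genes measured in both preparations were positive.

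The remaining large increases were Itgb6 (integrin beta 6, 1.93), Mapt (the microtubule protein tau, 1.83), Klhdc8a (1.68), the retinoid receptor gene Rxrg (1.66), Lrtm1 (1.64) and Ankrd23 (a titin-binding ankyrin repeat protein, 1.59). Mapt read 0.948 and 0.726 FPKM at P0 and 4.79 and 6.38 FPKM at P4. Rxrg read 1.60 and 0.860 FPKM and then 6.14 and 5.75 FPKM. Mapt and Rxrg were near 1 FPKM at P0, where the +1 in the log2 scale compresses the difference. So were Itgb6, at 0.875 and 0.603 FPKM, and Klhdc8a, at 1.33 and 0.862 FPKM. Klhdc8a was not called without the first P4 library (1.49, adjusted p = 0.0774), Lrtm1 was called only without the second P4 library (adjusted p = 0.0524 to 0.201 in the other fits), and Ankrd23 was called in no fit that left a library out (adjusted p = 0.102 to 0.245). The other 9 of the 12 largest increases were called in all of these fits.

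**Figure D2:**
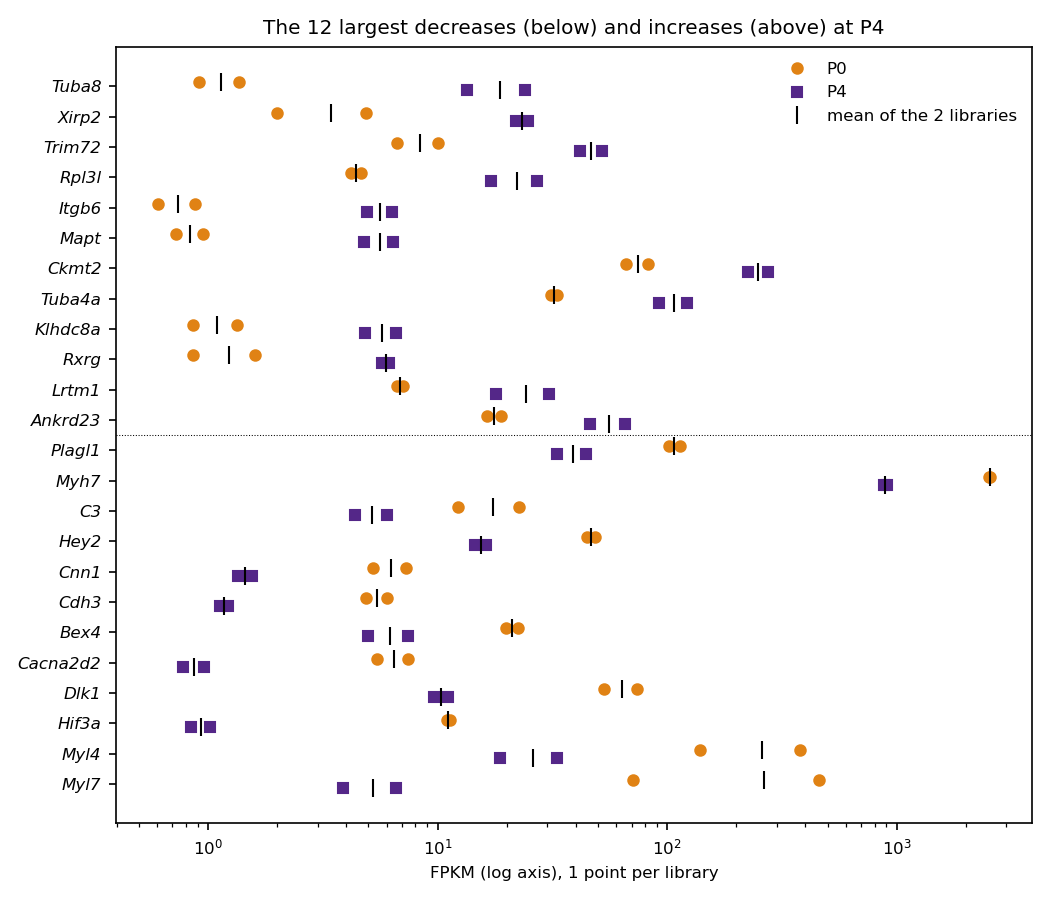
FPKM on a log axis in each of the 4 libraries for the 12 largest increases (above the dotted line) and the 12 largest decreases (below it) among called genes with a group mean of at least 5 FPKM. Circles are P0 libraries, squares P4 libraries and bars the mean of the 2 libraries; the groups are separate in every gene, and the P0 libraries of Myl7, at 459 and 70.6 FPKM, are the widest pair.

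Called increases included markers of other cell types. Rgs5, a regulator of G-protein signalling and a marker of pericytes, rose from 68.2 and 85.1 FPKM to 173 and 185 FPKM (log2 difference 1.22, SE 0.14, adjusted p = 0.000598). It was the only one of 9 smooth muscle and pericyte markers called, and Rgs5 is the one that moved while the list's median was 0.18. Dcn rose from 121 and 111 FPKM to 184 and 198 FPKM (0.72, adjusted p = 0.0477), the only called gene of 25 on the collagen and matrix list, whose median was 0.21. This call was lost whichever library was left out, with differences of 0.65 to 0.78 in these fits.

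Some further called genes were chosen once their values had been seen. The small leucine-rich matrix genes Ogn (osteoglycin) and Aspn (asporin) had nearly equal P4 libraries, at 55.5 and 56.0 FPKM for Ogn and 52.4 and 52.7 FPKM for Aspn. Their P0 libraries differed, at 16.5 and 33.6 FPKM for Ogn and 16.5 and 31.5 FPKM for Aspn, the lower value in each case in the first library. Without that library the differences of 1.21 and 1.17 became 0.71 and 0.72 (adjusted p = 0.325 and 0.307), and both were also lost without either P4 library. Nov, a secreted matricellular factor, rose by 1.49 and was called without each library in turn. Itga7, the laminin receptor subunit of muscle, rose by 1.28, and Hcn2, a pacemaker channel, rose by 1.32; both were lost without the first P4 library (adjusted p = 0.0574 and 0.0724).

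The decreases included genes of fetal growth. Insulin-like growth factor 2 (Igf2) is the main fetal growth factor, its receptor Igf2r clears it, Igf2bp1 to Igf2bp3 are RNA-binding proteins that bind its messenger RNA, and Dlk1, Plagl1 and Cdkn1c are, like Igf2 and Igf2r, imprinted genes of fetal growth. Of 18 tested genes on this list 9 fell and none rose, 17 had a negative difference, and the median was -0.71 against -0.04 for all genes. Among all tested genes 0.887% were called lower and 56.6% had a negative difference. The list was chosen with earlier results of these data known.

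Dlk1 (chr12:110691059-110701545, mm9) read 73.8 and 53.1 FPKM at P0 and 9.66 and 11.1 FPKM at P4, a 6.11-fold lower mean (log2 difference -2.48, SE 0.28, adjusted p = 0.000621). Plagl1, a zinc finger factor, read 102 and 113 FPKM and then 33.2 and 44.2 FPKM (-1.46, adjusted p = 0.000595). Igf2 (chr7:149836673-149852721, mm9) read 753 and 580 FPKM at P0 and 284 and 328 FPKM at P4, the largest loss of FPKM in the list (-1.11, adjusted p = 0.00818). The antisense transcript Igf2as overlaps Igf2, and with no strand setting given for the counting, reads of the 2 cannot be told apart. Without the first P0 library Igf2 differed by -0.92 (adjusted p = 0.0959), and without the first P4 library by -1.01 (adjusted p = 0.11).

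Another 6 members fell, from lower levels than Igf2. Igf2bp1 fell by 1.33, from 5.64 and 4.39 FPKM to 1.47 and 1.305 FPKM, and Igf2r fell by 0.95, from 126 and 114 FPKM to 57.0 and 66.7 FPKM. Igfbp5, an IGF-binding protein, fell by 0.92, the cyclin-dependent kinase inhibitor gene Cdkn1c by 0.76, Igf2bp2 by 0.74 and Igf2bp3 by 0.66. Igf1, the growth factor of postnatal life, was the 1 member with a positive difference, 0.33 (adjusted p = 0.439). Of the 9 called members Dlk1 and Plagl1 were called without each library in turn. Igf2bp1 was lost without the second P4 library (adjusted p = 0.0501), Igf2r without the first P0 or the first P4 library (adjusted p = 0.0584 and 0.0939), and Igf2bp2 in every such fit (adjusted p = 0.137 to 0.256). Igf2bp3, Igfbp5 and Cdkn1c were called only without the second P0 library (adjusted p = 0.0655 to 0.167, 0.101 to 0.324 and 0.103 to 0.238 in the other fits). Without the first P0 library 3 members of the list were called, with a median of -0.69.

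**Figure D3:**
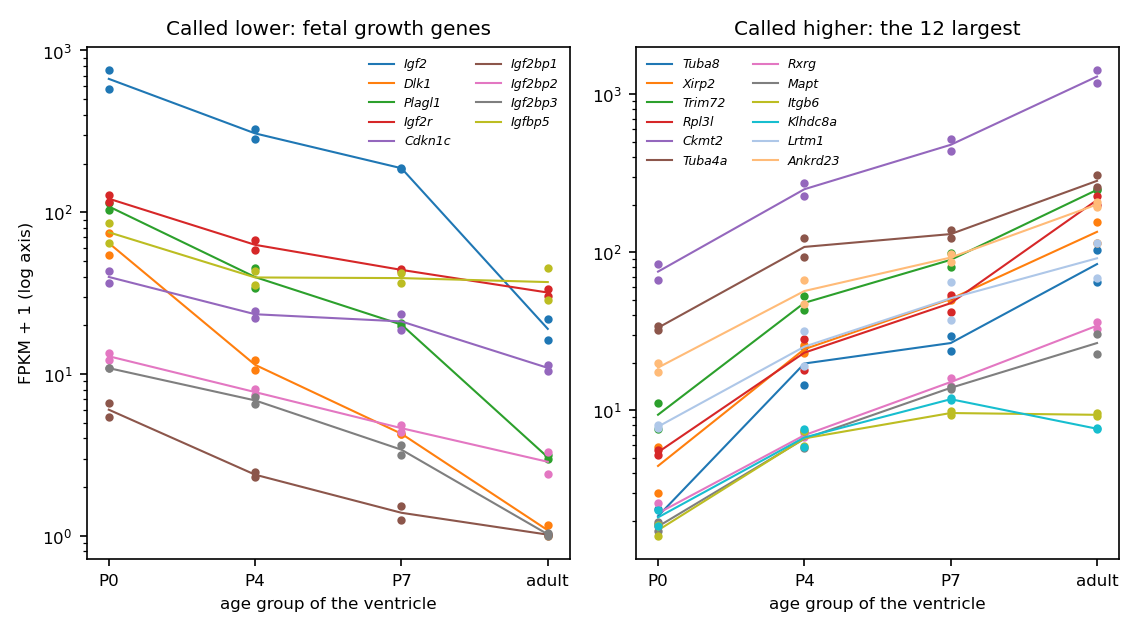
FPKM + 1 on a log axis in ventricle at P0, P4, P7 and in adults, with a point for each of the 2 libraries and a line through their mean. Left, the 9 fetal growth genes called lower at P4, of which Igf2 goes from 753 and 580 FPKM at P0 to 15.2 and 20.8 FPKM in adults; right, the 12 largest increases, of which Ckmt2 goes from 82.5 and 66.1 FPKM to 1169 and 1415 FPKM.

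Of the fetal muscle isoforms 3 fell, among them the most abundant called gene. Myh7, the beta-myosin heavy chain of fetal mouse ventricle (chr14:55589525-55613471, mm9), read 2557 and 2516 FPKM at P0 and 907 and 877 FPKM at P4. The means were 2536 ± 29.1 and 892 ± 20.7 FPKM (SD, n = 2), 2.84-fold lower at P4 (log2 difference -1.51, SE 0.20, adjusted p = 0.0025). Its neighbour Myh6, the alpha-myosin that replaces it, read 3773 and 3132 FPKM and then 4140 and 3095 FPKM, and the ages overlapped (0.06, adjusted p = 0.949, and -0.31 under quantile normalization). The 2 myosin genes are alike in sequence, so reads they share could have been split between them. Tnni1, the slow skeletal troponin I of the fetal heart, read 1282 and 1117 FPKM and then 660 and 619 FPKM without passing the test (-0.90, adjusted p = 0.135). Of 17 tested fetal muscle isoforms and stress genes none rose and 6 were positive, with a median of -0.26. Among all tested genes 0.887% were called lower and 43.4% were positive. The 3 that fell were Myl4, Cnn1 (calponin 1, from 7.31 and 5.21 FPKM to 1.36 and 1.55 FPKM) and Myh7. Cnn1 was called only without the second P0 library when 1 was left out (adjusted p = 0.0591 to 0.0961 in the other fits).

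The light chain gene Myl7 (chr11:5796640-5798785, mm9), a marker of atrial muscle, had the largest difference of all called genes and uneven P0 replicates. It read 459 and 70.6 FPKM at P0 and 6.60 and 3.88 FPKM at P4 (log2 difference -4.90, SE 0.83, adjusted p = 0.00961). Without the first P0 library the difference was -3.56 and was not called (adjusted p = 0.103), nor was it without the first or the second P4 library (adjusted p = 0.0724 and 0.0937). Myl4, the other atrial light chain, read 379 and 139 FPKM and then 33.2 and 18.7 FPKM (-3.15, adjusted p = 0.00341). Without the first P0 library it was called at -2.43 (adjusted p = 0.0369), and without the second P4 library it was lost (-2.75, adjusted p = 0.0514).

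All 10 atrial markers had a negative difference, with a median of -0.92, and 4 fell: Myl7, Myl4, Bmp10 and Pam. Among all tested genes 56.6% had a negative difference and 0.887% were called lower. Bmp10, a growth factor of the trabecular and atrial wall, read 3.36 and 3.59 FPKM at P0 and 0.0797 and 0.293 FPKM at P4 (-1.92, adjusted p = 0.000794), with P0 libraries that were alike, and was called without each library in turn. Pam, an enzyme that amidates peptides, read 510 and 371 FPKM and then 238 and 228 FPKM (-0.90), and it was lost without either P4 library (adjusted p = 0.0657 and 0.0655). The sarcolipin gene Sln, not called, also had uneven P0 libraries, at 45.5 and 2.27 FPKM, and the atrial peptide gene Nppa overlapped between the ages, at 375 and 143 FPKM and then 113 and 287 FPKM. The summed level of the 10 markers was 1836 and 758 FPKM at P0 and 416 and 565 FPKM at P4. Without the first P0 library 3 of the 10 were called and 3 had a positive difference, with a median of -0.56. The part of atrial tissue in these differences was not tested.

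The stretches before Myh7 and Myl7 are shown because both hold a motif of muscle promoters within 250 bases. In Myh7 the capitals mark an M-CAT element (CATTCC on the other strand) 201 to 196 bases before the start (chr14:54994627-54994876, minus strand). In Myl7 they mark a CArG box, the site of serum response factor, 61 to 52 bases before the start (chr11:5898783-5899032, minus strand, both from the RefSeq promoter table of GRCm38.p6).

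Myh7: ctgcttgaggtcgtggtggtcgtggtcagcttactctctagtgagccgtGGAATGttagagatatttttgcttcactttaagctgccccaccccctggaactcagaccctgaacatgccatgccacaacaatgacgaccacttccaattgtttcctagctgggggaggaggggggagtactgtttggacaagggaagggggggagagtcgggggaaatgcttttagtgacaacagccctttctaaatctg
Myl7: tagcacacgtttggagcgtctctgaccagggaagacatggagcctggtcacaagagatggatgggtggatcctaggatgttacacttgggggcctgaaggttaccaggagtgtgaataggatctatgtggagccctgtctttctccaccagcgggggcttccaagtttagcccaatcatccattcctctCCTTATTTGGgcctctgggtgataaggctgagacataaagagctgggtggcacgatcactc

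Motifs were counted in the 250 bases before the start, on both strands, for the 8230 tested genes with a promoter in that table, 65 of the 101 higher and 71 of the 117 lower. The MEF2 site was in 4 of the 65 higher promoters (6.15%), in 0 of the 71 lower and in 1.73% of all. The letters TATAAA were in 9.23% of the higher, 1.41% of the lower and 6.18% of all. CATTCC was in 16.9%, 15.5% and 10.8%, and the CArG box in 0%, 2.82% and 1.2%. For the element AAGGTCA of oestrogen-related receptors the shares were 3.08%, 1.41% and 2.65%, for AGATAA 9.23%, 7.04% and 5.54%, for NACGTG of hypoxia-inducible factors 16.9%, 22.5% and 22.3%, and for CANNTG 63.1%, 64.8% and 55.8%. These are counts of letters in a window and no test was made of them.

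Of 24 tested transcription factors of heart development 4 fell (Hey2, Tbx18, Hand1 and Gata6) and none rose, where 0.887% of all tested genes were called lower. A negative difference was found in 21 of the 24, against 56.6% of all tested genes, and the median was -0.36. Hey2, a Notch target that keeps compact ventricular muscle distinct from atrial muscle, read 44.5 and 48.5 FPKM at P0 and 14.6 and 16.3 FPKM at P4 (log2 difference -1.53, SE 0.19, adjusted p = 0.00113), and it was called without each library in turn. Gata6 read 79.7 and 76.0 FPKM and then 47.8 and 45.7 FPKM (-0.72), Tbx18, also an epicardial marker, 10.4 and 11.6 FPKM and then 6.43 and 5.63 FPKM (-0.77), and Hand1 1.47 and 1.66 FPKM and then 0.448 and 0.652 FPKM (-0.73). When 1 library was left out Gata6 was called only without the second P0 library (adjusted p = 0.0584 to 0.0724 in the other fits), and Tbx18 and Hand1 in no fit (adjusted p = 0.099 to 0.221 and 0.0845 to 0.259).

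Hif3a (chr7:17616856-17647776, mm9), a member of the hypoxia-inducible factor family that can restrain its relatives, had the smallest adjusted p of all genes. It read 11.0 and 11.3 FPKM at P0 and 0.840 and 1.02 FPKM at P4, an 11.98-fold lower mean (log2 difference -2.65, SE 0.16, adjusted p = 5.18e-06). It was the only called gene of 19 tested on the hypoxia list, whose median was 0.04 and of which 11 were positive. The glycolytic enzyme genes moved in both directions: Aldoc (aldolase C) fell by 1.45, from 7.45 and 5.38 FPKM to 1.35 and 2.09 FPKM, and Hk2, the hexokinase of insulin-responsive tissue, rose by 0.60, from 29.0 and 29.0 FPKM to 47.1 and 42.2 FPKM. The other 21 tested genes of that list were not called. Aldoc was lost without the first P0 or the first P4 library (adjusted p = 0.0771 and 0.0973) and Hk2 in every fit that left a library out (adjusted p = 0.104 to 0.338).

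The other large decreases came from several cell functions. Cacna2d2, a calcium channel subunit, read 7.43 and 5.44 FPKM at P0 and 0.775 and 0.963 FPKM at P4 (-1.98). Bex4 fell by 1.63, the P-cadherin gene Cdh3 by 1.56 and the complement gene C3 by 1.53. Cacna2d2, Bex4 and Cdh3 were called without each library in turn, and C3 only without the second P0 library (adjusted p = 0.0973 to 0.217 in the other fits). The T-type calcium channel gene Cacna1h, which carries a current of fetal heart muscle, fell by 1.32 and was the only called gene of 25 tested for calcium handling and excitation; it was called only without the first P4 library (adjusted p = 0.0749 to 0.235 in the other fits). Corin, the protease that activates atrial natriuretic peptide and a gene named after its values were seen, fell by 0.97 and was lost without the second P4 library (adjusted p = 0.0695).

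Of 7 tested endocardial and valve markers 3 fell and none rose, where 0.887% of all tested genes were called lower. The median was -0.31, with 5 negative and 2 positive differences. The summed level of the 8 markers found went the other way, at 301 and 305 FPKM at P0 and 321 and 355 FPKM at P4. Plvap, a protein of endothelial diaphragms, read 20.03 and 14.3 FPKM at P0 and 5.05 and 6.39 FPKM at P4 (-1.43, adjusted p = 0.0025) and was called without each library in turn. The natriuretic peptide receptor gene Npr3 fell by 0.85 and the adhesion receptor gene Gpr126 by 0.82, and both were called only without the second P0 library (adjusted p = 0.0516 to 0.0988 and 0.124 to 0.144 in the other fits). Of 9 general endothelial markers none was called, and their median was 0.15.

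No gene of mitosis or DNA replication was called at P4. All 29 tested genes of mitosis and cytokinesis had a positive difference, with a median of 0.31, and 24 of 28 of DNA replication, with a median of 0.17, where 43.4% of all tested genes were positive. In isolated cardiomyocytes the P4 minus P0 estimates of all 29 and all 28 were positive, with medians of 0.42 and 0.22. There 70.2% of all genes measured in both preparations were positive. In ventricle the proliferation marker Mki67 read 6.40 and 16.2 FPKM at P0 and 17.6 and 23.4 FPKM at P4 (0.92, adjusted p = 0.14). The kinetochore motor gene Cenpe read 1.56 and 4.71 FPKM and then 5.66 and 6.18 FPKM (0.85, adjusted p = 0.175). In both the first P0 library was the low one, and without it the differences were 0.31 (adjusted p = 0.68) and 0.28 (adjusted p = 0.795). Cyclin B1 (Ccnb1) overlapped between the ages, at 6.58 and 5.82 FPKM and then 5.79 and 7.65 FPKM. Without the second P4 library 23 of the 29 mitosis genes were positive with a median of 0.14, and without the second P0 library 2 of the 29, Mki67 and Cenpe, were called higher (1.53 and 1.43, adjusted p = 0.00239 and 0.00516). Of 16 cell-cycle inhibitors and D cyclins Ccng1, a target of p53, rose by 0.86, from 74.0 and 82.7 FPKM to 138 and 148 FPKM, and Cdkn1c fell as given above; Ccng1 was lost whichever library was left out (adjusted p = 0.0586 to 0.211).

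Few genes of energy metabolism were called. None of 36 respiratory chain and citric acid cycle genes was called, 31 were positive and the median was 0.20. Here too 43.4% of all tested genes were positive. The 9 tested genes of the mitochondrial genome were all positive with a median of 0.40, but the first P0 library was low in them; without it the median was 0.09 and the subunit gene mt-Nd4 went from 0.63 to -0.02. Of 28 fatty acid oxidation genes only Acot2, a mitochondrial thioesterase, was called; it fell by 0.99, from 122 and 108 FPKM to 71.7 and 45.9 FPKM, and the median of the list was 0.00. Acot2 was called only without the first P4 library (adjusted p = 0.0845 to 0.343 in the other fits). None of 16 PPAR and fasting genes (median -0.28) and none of 17 ketone and lactate genes (median 0.05) was called. On the second of these lists Oxct1, the enzyme that lets the heart burn ketones, read 94.7 and 88.4 FPKM and then 134 and 162 FPKM (0.68, adjusted p = 0.0972). Fasn and Srebf1, fatty acid synthase and its regulator, were picked after their values were seen: they fell by 0.80 and 0.83 and were lost whichever library was left out (adjusted p = 0.0529 to 0.211 and 0.0744 to 0.268).

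**Figure D4:**
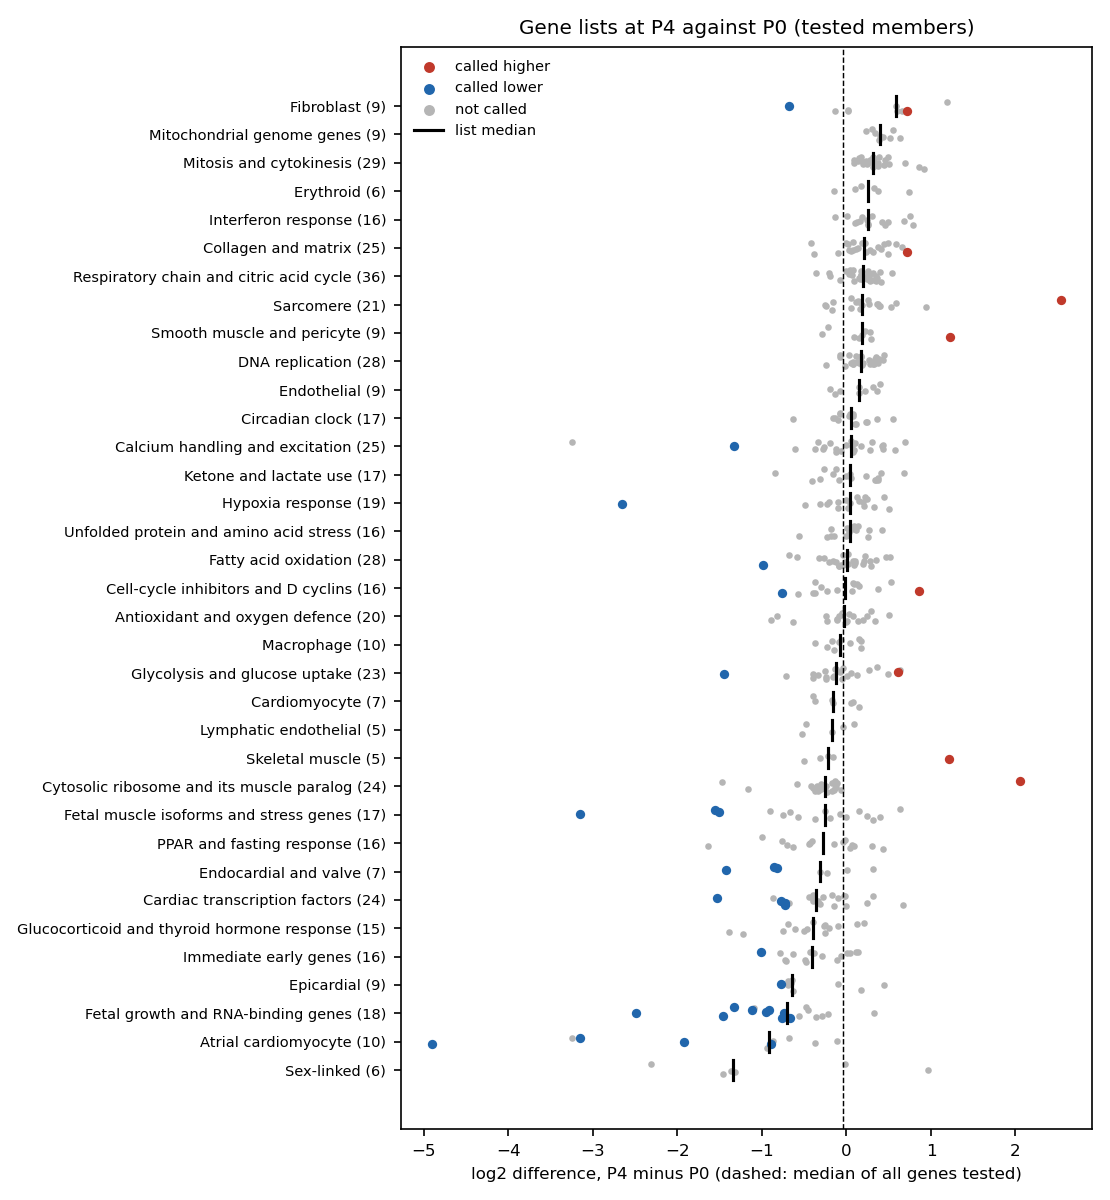
Each point is a tested member of a gene list, placed by its log2 difference P4 minus P0, for the lists with at least 5 tested members (their number is in parentheses); the black bar is the list's median and the dashed line the median of all genes, -0.04. Called members are red or blue; the fetal growth list, with 9 blue points, and the atrial list, with a median of -0.92, lie to the left, and the 29 mitosis genes lie right of 0 with none called.

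The remaining lists held few calls. Of 16 immediate early genes Myc fell by 1.01, from 6.64 and 6.19 FPKM to 2.37 and 2.99 FPKM, and the median was -0.41; the Myc call was lost whichever library was left out (adjusted p = 0.0546 to 0.22). None of the genes tested for the response to glucocorticoid and thyroid hormone (15, median -0.39), the circadian clock (17, 0.06), unfolded protein and amino acid stress (16, 0.04), antioxidant defence (20, -0.02) or interferon (16, 0.25) was called.

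Of the cell type markers, the fibroblast list split: of 9 tested Dcn rose and Gsn (gelsolin) fell by 0.68, from 128 and 103 FPKM to 71.1 and 70.8 FPKM, and the median was 0.59. Gsn was called only without the second P0 library (adjusted p = 0.16 to 0.203 in the other fits). Of 5 skeletal muscle genes tested Mybpc2, a myosin-binding protein of fast fibres, rose by 1.21, from 2.17 and 2.55 FPKM to 6.07 and 7.54 FPKM, and was lost without the first P0 or the second P4 library (adjusted p = 0.0551 and 0.0671), while Myod1, which defines skeletal muscle, was at 0 in all 4 libraries. Of 9 epicardial markers Tbx18 fell, and the median was -0.64. None of the tested markers of cardiomyocytes (7, median -0.16), lymphatic endothelium (5), macrophages (10), neutrophils (3), erythroid cells (6), adipocytes (2), lung (2), thymus (1) or Schwann and neuronal cells (3) was called, and none of 11 lymphocyte markers was high enough to be tested. The lung list summed to between 4.81 and 5.83 FPKM, with Sftpd, Cxcl15 and Nkx2-1 at 0 in all 4 libraries.

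Sex-linked transcripts differed between libraries. The Y-linked genes Eif2s3y and Ddx3y read 22.9 and 37.0 FPKM and 6.19 and 16.7 FPKM at P0, and 0.184 and 30.3 FPKM and 0.182 and 13.2 FPKM at P4. Xist, transcribed from the inactive X chromosome, read 29.8 and 39.5 FPKM at P0 and 98.6 and 47.1 FPKM at P4. The first P4 library thus held almost no Y-linked transcript and the most Xist, and the other 3 held both. No sex-linked gene was called, and the part of sex in other differences was not tested.

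Levels at P7 and in adults are given beside these differences as a description, since a contrast of P4 with a later age would share the P4 libraries. Sex-linked transcripts differed at these ages too. Xist read 75.5 and 83.1 FPKM at P7 and 0.164 and 0.0974 FPKM in adults. The Y-linked gene Kdm5d read 0.0122 and 0.0122 FPKM at P7 and 3.62 and 3.06 FPKM in adults. The part of sex in levels at P7 and in adults, and in any contrast with P7, was not tested. Xirp2, Trim72 and Ckmt2 read higher at both later ages than at P4, while Tuba8 overlapped with P4 at P7 and read higher in adults. Tuba8 read 22.6 and 28.6 FPKM at P7 and 63.8 and 102 FPKM in adults, Trim72 97.6 and 79.2 FPKM and then 246 and 248 FPKM, and Ckmt2 516 and 438 FPKM and then 1169 and 1415 FPKM. Xirp2 read 49.0 and 50.1 FPKM at P7 and 154 and 113 FPKM in adults. Of the decreases, Dlk1 read 3.28 and 3.27 FPKM at P7 and was listed at 0 and 0.164 FPKM in adults, and Hey2 read 4.36 and 5.68 FPKM and then 1.32 and 2.06 FPKM. Myh7 was level after P4, at 884 and 810 FPKM at P7 and 866 and 913 FPKM in adults. The limit given above on reads shared with Myh6, which read 4822 and 4666 FPKM in adults, holds here too. Tnni1, not called at P4, read 138 and 226 FPKM at P7. C3 went the other way later, from 6.88 and 6.27 FPKM at P7 to 39.5 and 35.1 FPKM in adults.

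A contrast of P4 with the mean of P0 and P7 asked which genes stand out at P4 itself. Of 13415 genes 10 were called (0.0745%), and 1 of these had both P4 libraries above all P0 and P7 libraries. It was Foxm1, a transcription factor that drives genes of mitosis, at 7.96 and 7.41 FPKM at P0, 10.2 and 11.4 FPKM at P4 and 4.16 and 5.25 FPKM at P7 (log2 difference 0.75, SE 0.12, adjusted p = 0.0404). The Foxm1 call was lost with a pseudocount of 0.1 (adjusted p = 0.146), a filter at 5 FPKM (0.0595), the replicate block (0.0587) or only the groups compared (0.22), and without either P0 library, either P4 library or the first P7 library (0.0575 to 0.516). Another 8 had both P4 libraries below, among them the immediate early genes Egr1 (9.97 and 8.07, 4.605 and 5.65, then 22.1 and 33.8 FPKM) and Btg2 (14.3 and 11.1, 9.27 and 10.8, then 29.7 and 36.4 FPKM), whose P7 libraries were the high ones. The tenth was Hif3a. No gene was called when only the 6 libraries compared were fitted, where 1123 had an unadjusted p under 0.05, or without the first P4 library, where 672 had; 1 was called without the second P4 library, 2 without the first P7 library and 28 without the second P0 library.

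The isolated cardiomyocytes gave 6 libraries that the ventricle contrast did not use. Of the 84 higher genes measured there 74 had a positive P4 minus P0 difference (88.1%, against 70.2% of all 12081 genes measured in both), and of the 106 lower genes 93 had a negative one (87.7%, against 29.8%). All 3 isolated P4 libraries lay above all 3 P0 libraries in 32 of the higher genes (38.1%, against 6.47% of all), and below in 40 of the lower (37.7%, against 2.38%). The isolated differences had medians of 0.56 and -0.31. As the genes were chosen by their ventricle difference, the size of the step cannot be compared between preparations from these medians. The isolated contrast itself called 4 of 12239 genes (0.0327%). Ckmt2 read 37.4, 39.6 and 43.6 FPKM in isolated cells at P0 and 79.2, 88.1 and 84.0 FPKM at P4. Trim72 read 4.27, 4.50 and 5.29 FPKM and then 8.28, 10.01 and 12.8 FPKM. The 2 genes were separate between the ages in both preparations.

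Other genes overlapped between the ages in isolated cells. Myh7 read 555, 609 and 682 FPKM at P0 and 836, 569 and 413 FPKM at P4, and Igf2 152, 152 and 241 FPKM and then 146, 109 and 210 FPKM. Myl7 read 82.1, 82.8 and 129 FPKM and then 8.27, 69.7 and 376 FPKM, a range at P4 wider than the step between ages. Dlk1 was low at both ages, at 4.03, 2.35 and 6.80 FPKM and then 2.37, 4.91 and 3.79 FPKM. Markers of other cells were uneven among the isolated libraries. All 9 endothelial markers had a positive P4 minus P0 estimate (median 1.12) and all 6 tested erythroid markers a negative one (median -2.86), but none was called in limma and single libraries carried the estimates. Cdh5 read 3.49, 2.75 and 25.5 FPKM at P0 and 38.7, 4.72 and 81.0 FPKM at P4, and the erythroid enzyme gene Alas2 128, 144 and 10.3 FPKM and then 3.62, 10.2 and 15.3 FPKM. The part of these markers in the isolated differences was not tested. The cardiomyocyte genes Myh6, Ryr2 and Nkx2-5 were not higher in isolated cells than in ventricle at P0. Their means were 1768 against 3453 FPKM, 71.4 against 143 FPKM and 54.0 against 66.2 FPKM. The mitochondrial gene mt-Cytb went the other way, at 40304 against 8016 FPKM. The name cardiomyocytes is thus that of the labels, and purity was not tested.

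**Figure D5:**
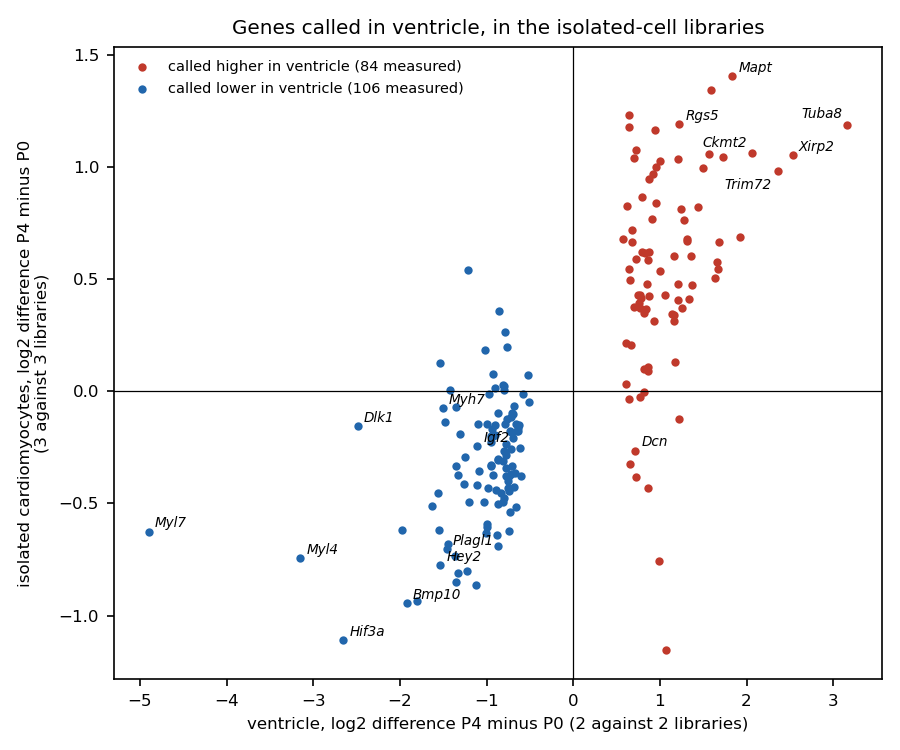
Genes called in ventricle and measured in isolated cardiomyocytes, with the log2 difference P4 minus P0 in ventricle (2 against 2 libraries) on the x axis and in isolated cells (3 against 3) on the y axis. Of the 84 red points, called higher, 74 lie above 0, and of the 106 blue points, called lower, 93 lie below it; Hif3a and Bmp10 are low in both, and Dcn and 9 other red points lie below 0.

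A test of the difference between the preparations, over all 36 libraries, called 1 of 13393 genes (0.00747%), Hif3a, which fell further in ventricle than in isolated cells. In isolated cells it read 3.05, 3.19 and 2.72 FPKM at P0 and 1.22, 0.843 and 0.539 FPKM at P4. For all other genes, among them Myh7 and Dlk1, the preparations were not shown to differ, in a test that in simulated data recovered 17.9% of 2-fold and 87.9% of 4-fold differences. Libraries taken 7 days after a sham operation, which entered the fits only through the shared estimate of spread, compared the preparations at 1 age: the called higher genes were lower in isolated cells than in ventricle by a median of 1.03 on the log2 scale, against 0.53 for all tested genes and 0.17 for the called lower genes. At least 2-fold higher in ventricle were 51 of the 101 higher genes (50.5%), 16 of the 117 lower (13.7%) and 26.5% of all. This comparison does not separate muscle from other cells. Isolated minus ventricle was -2.19 for Ryr2 and -1.35 for Myh6 but 1.89 for Nkx2-5, all cardiomyocyte markers. For markers of other cells it was -2.03 for Dcn and 0.94 for Cdh5.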

How the data were processed

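The RNA was total RNA extracted with Trizol, and libraries were made by an earlier published protocol or with the Illumina TruSeq kit and sequenced on a GA-2 or Hi-Seq instrument, per the labels' protocols, which do not say which library had which. The authors' deposited table gives FPKM for 36128 gene models (32750 symbols) in 36 libraries. Bowtie 0.12.7, TopHat 1.3.2, Cufflinks 1.2.1, Cuffdiff and the mouse build mm9 are named in the submitters' processing notes; the annotation, the strand setting and the treatment of reads shared between genes are not given in the sources used here. FPKM keeps no read count, and how deeply the libraries were sequenced is unknown.

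From these values log2(FPKM + 1) was computed for genes with at least 1 FPKM in at least 2 of the libraries compared. P4 against P0 and P4 against the mean of P0 and P7 were fitted with limma 3.58.1 (R 4.3.3, variance trend) over 16 ventricle libraries in 8 groups of 2, which share 1 estimate of spread. The difference between preparations was fitted over all 36 libraries, and the isolated contrast over 12 isolated libraries. P-values are two-sided and adjusted by Benjamini-Hochberg over all genes tested, with 0.05 as threshold and no fold minimum. An exact permutation test of a single gene cannot go below 0.333 with 2 against 2. In simulated data the P4 against P0 fit of 13187 genes recovered 14.9% of 1.5-fold, 88.1% of 2-fold and 100% of 4-fold changes. The simulations, also that for the preparations, drew independent normal noise of the fitted spread and set the folds on the log2(FPKM + 1) scale. They held no library that stood apart, so recovery in the real libraries may be lower.

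Of 705 genes in 41 lists of pathways and cell type markers 35 were not found. The genes named were the 12 largest called increases and decreases with a mean of at least 5 FPKM in the higher group, the 8 called genes with the largest difference in mean FPKM, up to 3 called members of each list or 2 with the smallest p where none was called, and a few fixed genes; of these the text gives a selection, and genes outside the rule are named as such. Unnamed gene models, 10 of the higher and 17 of the lower calls, were left out of the rule. The members and lists were chosen with earlier results of these data known. The values of genes at the edge of the filter were 1.00051 FPKM just inside and 0.999925 FPKM just outside. Start positions in the table count from 0 and were raised by 1. Promoters came from RefSeq (GRCm38.p6) by symbol. Alternatives tried were another pseudocount, other filters, median-of-ratios and quantile scaling, a replicate block, fits of fewer or more libraries, no variance trend, a 2-fold minimum and leaving out each library. Figures were drawn with Python 3.11.15 and Matplotlib 3.10.9.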

Additional observations from a re-analysis of the deposited data

Results flagged for a closer look

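Hif3a was the 1 gene of 13393 whose change from P0 to P4 differed between ventricle and isolated cardiomyocytes in the limma fit of all 36 libraries. Its P4 minus P0 difference was lower in ventricle by a log2 difference of -1.55 (SE 0.22, 95% interval -2.0 to -1.09, adjusted p = 0.00292), with 11.0 and 11.3 FPKM becoming 0.840 and 1.02 FPKM in ventricle and 3.05, 3.19 and 2.72 FPKM becoming 1.22, 0.843 and 0.539 FPKM in isolated cells. All isolated P4 libraries lay below all isolated P0 libraries, so both preparations had the same direction. The call was lost with a pseudocount of 0.1, with median-of-ratios or quantile scaling, when only the groups compared were fitted and without the first P4 ventricle library.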

How the results depend on the processing

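With 101 genes higher and 117 lower in ventricle at P4, the counts were 74 and 61 with a pseudocount of 0.1, 54 and 93 with no filter on low values, 63 and 81 with a filter at 5 FPKM, 122 and 106 with median-of-ratios scaling, 279 and 237 with quantile normalization, 92 and 117 with only the groups compared, 100 and 124 with no variance trend, 19 and 41 when all 36 libraries were fitted together, and 40 and 41 with a 2-fold minimum. Leaving out 1 library gave 18 to 145 higher and 31 to 128 lower. The replicate block gave 90 and 115, with 190 of the 218 genes shared. The deviations of same-numbered P0 and P4 libraries correlated at r = 0.02 across 13187 genes. With 1 deviation per age this cannot tell whether same-numbered libraries were handled together, and the labels do not say. Of the called genes named here that were tested, 44 of 67 were called with a pseudocount of 0.1, 42 of 67 with no filter, 57 of 58 with a filter at 5 FPKM, 62 of 67 with median-of-ratios scaling, 67 of 67 with quantile normalization, 59 of 67 with the block, 57 of 67 with only the groups compared, 64 of 67 with no variance trend and 28 of 67 in the 36-library fit. No called gene named here changed direction.

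Some genes that were not called changed sign. Myh6 (0.06) was -0.31 with quantile normalization and -0.15 to 0.27 with 1 library left out. The other ranges with 1 library left out were -1.06 to 0.32 for Nppa, -0.083 to 0.27 for Ccnb1, -4.67 to 0.055 for Eif2s3y, -3.26 to 0.33 for Ddx3y and -0.024 to 1.28 for mt-Nd4.

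For P4 against the mean of P0 and P7, 10 genes became 1 with a pseudocount of 0.1, 25 with no filter, 3 with a filter at 5 FPKM, 18 with quantile normalization, 0 with only the groups compared (limma, 1123 at an unadjusted p under 0.05), 6 with a 2-fold minimum and 0 to 28 with 1 library left out (0 without the first P4 library, 672 at an unadjusted p under 0.05). With the replicate block 9 were called. Foxm1 was not among the calls with the block, a pseudocount of 0.1, a filter at 5 FPKM or only the groups compared, nor without either P0 library, either P4 library or the first P7 library. For the difference between preparations, 1 gene became 0 with a pseudocount of 0.1 (limma, 164 at an unadjusted p under 0.05), with median-of-ratios scaling (207), with quantile normalization (316) and with only the groups compared (463), 16 with no filter and 0 to 3 with 1 library left out (0 without the first P4 library, 139 at an unadjusted p under 0.05; 3 without the second P0 library; 2 without the third isolated P0 library). The cause of these shifts was not tested. With 2 libraries a group and no read counts, changes under 2-fold are the least secure.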

Other observations

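Called genes outside the lists, chosen after their values were seen, included genes of secreted factors and receptors. Sema3c, a guidance factor of the outflow tract, rose from 4.08 and 4.14 FPKM at P0 to 12.6 and 11.6 FPKM at P4 (log2 difference 1.36, limma adjusted p = 0.000598) and was called without each library in turn. Apln, the vascular peptide apelin, rose by 0.79 and Cd34, a surface protein of endothelial and progenitor cells, by 0.64; both were called only without the first P0 library (adjusted p = 0.192 to 0.248 and 0.187 to 0.261 in the other fits). Vash2, the angiogenesis gene vasohibin 2, fell from 31.5 and 23.9 FPKM to 8.60 and 14 FPKM (-1.24), and Ednra, an endothelin receptor, from 28.3 and 24.6 FPKM to 12.2 and 14.3 FPKM (-0.95). Both were lost without the first P0 library (adjusted p = 0.164 and 0.091) and without the first P4 library (adjusted p = 0.225 and 0.115). Bmp7, a growth factor, fell by 1.00 and was lost whichever library was left out (adjusted p = 0.0619 to 0.294).

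Some genes known from muscle were also called. Lmod3, which nucleates actin thin filaments, rose from 22.01 and 20.2 FPKM to 35.6 and 34.3 FPKM (0.70), and the small heat shock protein gene Hspb8 from 27.7 and 23.8 FPKM to 49.2 and 49.0 FPKM (0.91). Both were lost without either P4 library (adjusted p = 0.111 and 0.0671 for Lmod3, 0.0893 and 0.0671 for Hspb8). Rbm24, a regulator of muscle splicing, fell by 0.62 and the ubiquitin ligase gene Trim55 by 0.61, from 162 and 159 FPKM to 103 and 106 FPKM. Both were lost whichever library was left out (adjusted p = 0.0784 to 0.333 and 0.0501 to 0.168).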
